A study of Mus musculus with 4 samples.

Results

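The genes described here encode the proteasome and the enzymes that attach ubiquitin to proteins, pass it on or remove it. They were chosen by symbol from the protein-coding genes of a RefSeq table of build GRCm38.p6. Symbols starting with Psma, Psmb, Psmc, Psmd, Psme, Ube2, Ube3, Ube4, Fbxo, Fbxl or Fbxw were taken, as were Usp, Cul and Rnf followed by a number. The rule gave 313 of 21900 protein-coding genes and used no measured value. A peak counted for a gene when it lay within 1000 bases of either end of the gene's span. By this measure 59 of the 313 genes had a peak, and 59 of the 3187 peaks in the deposited table belonged to them. The rule goes by name alone, so it also took genes that are not subunits or enzymes themselves, such as Psme3ip1, whose product binds a proteasome activator.

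The assay was ATAC-seq, in which the transposase Tn5 cuts and tags open DNA, on CD8+ T cells taken with magnetic beads from spleens of OTI:Cas9 mice. All cells received ribonucleoprotein of Cas9 and guide RNA by electroporation, so both groups share the mouse background and the procedure. The sgPrdm12 group (genotype label Prdm12-ko) had 2 libraries, and so did the sgNTC group (genotype label Prdm12-wt), and replicate 1 of each group was batch 1 and replicate 2 was batch 2. The series text calls the control cells non-edited, whereas the treatment protocol lists sgNTC among the guides, so the groups are named by guide here. The sources used here do not give the age of the mice, any pooling of animals or the efficiency of the edit. Nothing says that replicates came from separate mice or cultures, so every p-value reflects the spread of these libraries alone, and that spread may be technical. In bulk libraries, fewer cells of a type and less accessible chromatin per cell cannot be told apart.

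The libraries held 20427 to 58068 reads in peaks. The library of sgPrdm12 replicate 2 stood apart. It was the shallowest, and 64.9% of its peak reads lay in gene-end peaks, against 70.0% to 74.3% in the other 3 libraries. Prdm12 itself had no gene-end peak, so the edit could not be checked at its own locus. The table did not show the cell type: 0 of 23 CD8 T cell genes fixed as markers, Cd8a and Cd3e among them, had a gene-end peak. Markers of other cells were also nearly absent, with 0 of 10 for B cells, 0 of 12 for myeloid cells and 0 of 8 for NK cells. The exceptions were Zbtb7b among 8 CD4 and regulatory T cell genes, with 2 and 11 reads for sgNTC and 3 and 9 for sgPrdm12, and Tfrc among 10 erythroid and platelet genes, with 0 and 13 against 3 and 0 reads.

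Ubiquitin is activated by an E1 enzyme, passed to an E2 conjugating enzyme (the Ube2 genes) and placed on a target with the help of an E3 ligase. Ligases include single RING proteins (many Rnf genes), HECT enzymes such as Ube3 genes, and cullin complexes, some of which recognise targets through F-box proteins. Usp enzymes remove ubiquitin again. Tagged proteins are unfolded by the regulatory particle of the proteasome and cut in its barrel-shaped core. In T cells this system supplies peptides for antigen presentation and controls signalling and cell division, and most of its genes are transcribed in nearly every cell type.

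The promoters below show the DNA that lay under or beside the strongest tested peaks. They belong to the 2 genes with the most reads in each subfamily whose tested peak overlapped a promoter window. F-box genes had 1 such member, which gave 11 promoters. Each runs from 120 bases before to 30 bases after the RefSeq gene start, 5′ to 3′ on the gene's strand, on build GRCm38.p6. Capitals mark letters that match 1 of 8 motifs on either strand: CCGGAA (ETS), GGGCGG (SP1 GC box), GCATGCGC (NRF1), TGACGTCA (CRE), CCAAT (NFY), AAGATGGC (YY1), ACTACAATT (ZNF143) and TGACNNNGC (an antioxidant response element of the kind bound by NFE2L1, where N is any base).
Psmc5 (chr11:106256065-106256214, plus strand): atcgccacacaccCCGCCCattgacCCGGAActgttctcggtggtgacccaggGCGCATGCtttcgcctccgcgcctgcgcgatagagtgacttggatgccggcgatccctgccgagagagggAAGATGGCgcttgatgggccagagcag
Psma2 (chr13:14613122-14613271, plus strand): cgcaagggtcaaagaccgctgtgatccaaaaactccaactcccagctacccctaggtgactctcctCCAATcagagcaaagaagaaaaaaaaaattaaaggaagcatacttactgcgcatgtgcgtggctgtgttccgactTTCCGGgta
Ube2s (chr7:4812311-4812460, minus strand): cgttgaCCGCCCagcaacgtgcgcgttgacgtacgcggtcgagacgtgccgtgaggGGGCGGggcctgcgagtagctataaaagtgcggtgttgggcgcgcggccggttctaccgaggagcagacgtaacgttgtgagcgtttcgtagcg
Ube2v1 (chr2:167631976-167632125, minus strand): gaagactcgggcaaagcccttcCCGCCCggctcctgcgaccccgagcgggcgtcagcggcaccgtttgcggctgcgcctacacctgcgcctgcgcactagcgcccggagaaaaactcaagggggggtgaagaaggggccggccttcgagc
Ube3b (chr5:114380500-114380649, plus strand): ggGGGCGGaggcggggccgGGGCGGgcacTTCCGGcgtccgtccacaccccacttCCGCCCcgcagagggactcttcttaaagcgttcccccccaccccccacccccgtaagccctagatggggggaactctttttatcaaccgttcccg
Ube4a (chr9:44965571-44965720, minus strand): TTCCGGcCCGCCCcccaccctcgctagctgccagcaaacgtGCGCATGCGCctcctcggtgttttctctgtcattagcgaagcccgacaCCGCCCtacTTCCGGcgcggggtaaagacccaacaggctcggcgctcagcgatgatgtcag
Fbxo5 (chr10:5805436-5805585, minus strand): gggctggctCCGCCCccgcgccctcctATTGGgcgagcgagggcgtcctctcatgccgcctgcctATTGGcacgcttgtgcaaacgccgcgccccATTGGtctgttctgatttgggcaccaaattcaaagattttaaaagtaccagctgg
Rnf40 (chr7:127588578-127588727, plus strand): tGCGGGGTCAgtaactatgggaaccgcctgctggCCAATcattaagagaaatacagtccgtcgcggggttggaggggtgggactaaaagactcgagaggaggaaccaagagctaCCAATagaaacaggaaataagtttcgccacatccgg
Rnf167 (chr11:70647115-70647264, plus strand): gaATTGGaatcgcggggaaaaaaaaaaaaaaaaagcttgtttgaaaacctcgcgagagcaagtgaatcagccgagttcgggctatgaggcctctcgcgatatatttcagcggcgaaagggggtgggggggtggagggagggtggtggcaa
Usp38 (chr8:81014877-81015026, minus strand): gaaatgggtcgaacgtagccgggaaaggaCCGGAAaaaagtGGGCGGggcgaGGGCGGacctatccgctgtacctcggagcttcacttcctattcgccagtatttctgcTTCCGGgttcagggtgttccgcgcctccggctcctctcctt
Usp10 (chr8:119910240-119910389, plus strand): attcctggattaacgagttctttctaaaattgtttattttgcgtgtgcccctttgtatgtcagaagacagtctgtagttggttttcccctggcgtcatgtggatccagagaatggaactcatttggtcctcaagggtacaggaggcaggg

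The peaks of Ube2s, Fbxo5 and Rnf40 lay wholly upstream of the start, and that of Fbxo5 lay wholly outside the printed stretch. These promoters did not share 1 arrangement. The Psmc5 stretch held ETS, GC box, NRF1 and YY1 matches, the last of them just inside the gene. The Fbxo5 stretch held 3 NFY matches and 1 GC box, and that of Rnf40 held 2 NFY matches and 1 antioxidant element. Usp38 had 2 ETS matches and 2 GC boxes, and Ube4a had a pair of NRF1 matches that overlap each other on opposite strands. The Usp10 stretch held no match to any of the 8 motifs, and its window of 300 bases had the lowest GC content of the 11, 48.3%, where Ube2v1 had the highest, 70.3%.

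Over all member promoters that overlapped a peak (52 windows of 300 bases, from 46 genes), base composition was close to that of other promoters over a peak. Their median GC content was 63.5%, against 63.0% for 2080 windows of other genes over a peak and 56.3% for all 21263 windows. GC boxes were in 80.8% of the member windows, 76.3% of the other windows over a peak and 46.2% of all windows. ETS letters were in 38.5%, 40.0% and 18.7% in the same order, and NRF1 letters in 11.5%, 12.7% and 3.52%. YY1 letters were in 13.5% of member windows, which is 7 of 52, against 6.78% and 3.05%, and NFY letters were in 32.7% against 47.9% and 38.2%. The antioxidant element was in 17.3%, 16.0% and 13.0%, CRE in 1.92%, 4.81% and 2.23%, and ZNF143 letters in 0%, 1.49% and 0.508%. NFE2L1 is known as the factor that raises proteasome genes when proteasome activity is short. Of 11 proteasome windows over a peak, from 10 genes with Psme3ip1 among them, 0 held its element as spelled here. With so few windows this count does not bear on that role. Windows of neighbouring genes can overlap, so these shares are descriptions and were not tested.

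Having a peak was more common among the member genes than among all protein-coding genes, and it varied between subfamilies. Of the 313 members 18.8% had a peak (95% Wilson interval 14.9 to 23.6), against 11.4% of all 21900 protein-coding genes. Ubiquitin-specific proteases stood at 15 of 56 (26.8%) and proteasome genes at 11 of 46 (23.9%). The E2 genes followed with 7 of 37 (18.9%), F-box genes with 12 of 78 (15.4%) and Rnf genes with 12 of 83 (14.5%). The HECT and U-box genes of the Ube3 and Ube4 names had 2 of 5. None of the 8 cullin genes, which encode the scaffolds of the largest ligase class, had a gene-end peak, and the interval for 0 of 8 reaches 32.4%. The intervals of the subfamilies overlapped, so their order is not resolved at these numbers.

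**Figure D1:**
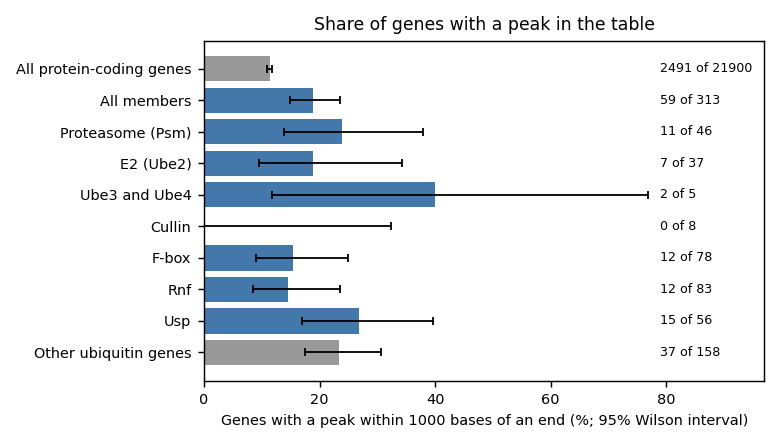
Share of genes with a gene-end peak in the deposited table (x axis, percent) for each ubiquitin and proteasome subfamily and for all protein-coding genes; bars are shares, error bars 95% Wilson intervals, and grey marks gene sets outside the members. The members together stood at 18.8% and all protein-coding genes at 11.4%, with 0 of 8 cullin genes.

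Within the proteasome the genes with peaks were spread over its parts. In the outer alpha rings of the core, 4 of 8 Psma genes had a peak, namely Psma1, Psma2, Psma4 and Psma5. Of 11 Psmb genes, which encode the inner rings with the cutting sites, 1 had a peak, and it was Psmb9, the immunoproteasome subunit induced by interferon. For the ATPases of the regulatory particle, Psmc5 had a peak among 7 genes named Psmc, of which Psmc3ip encodes a recombination factor instead. Among 14 Psmd genes, which encode other subunits of the particle and some of its assembly factors, Psmd3, Psmd5 and Psmd13 had peaks. Psme2, which encodes a subunit of an interferon-inducible activator, and Psme3ip1 had peaks among 6 Psme genes. Among F-box genes, 7 of 36 Fbxo, 3 of 18 Fbxl and 2 of 24 Fbxw genes had a peak. A run of 15 related Fbxw genes on chromosome 9 had 1 peak, at Fbxw24.

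The peaks sat at starts. The 59 peaks formed 60 gene and peak pairs, because Rnf31 had 2 peaks and shared 1 of them with Psme2. For 49 pairs the strand of the gene was known, and in 47 of them the nearer gene end was the 5′ end. The exceptions were Ube2m and the second peak of Rnf31, at the 3′ end, where each peak also lay within 1000 bases of a neighbour, Chmp2a and Irf9. This position was that of gene-end peaks in general. With any protein-coding gene allowed and unknown strands in the total, a 5′ end was nearest at 81.4% of member peaks and 82.1% of all gene-end peaks. Of the 47 pairs at a 5′ end, in which the peak of Psme2 and Rnf31 counts for both genes, the peak covered the annotated start in 24, lay wholly upstream in 18 and lay wholly inside the gene in 5. Their centres lay upstream in 32 pairs and inside the gene in 15, with a median position of -123.5 bases and a range from -1178.5 (Usp49) to 529.5 (Rnf185). The width of the member peaks ran from 268 to 796 bases with a median of 389, against 417 for all gene-end peaks. They held 9 to 111 reads over the 4 libraries, with a median of 42, against 44 for all gene-end peaks.

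**Figure D2:**
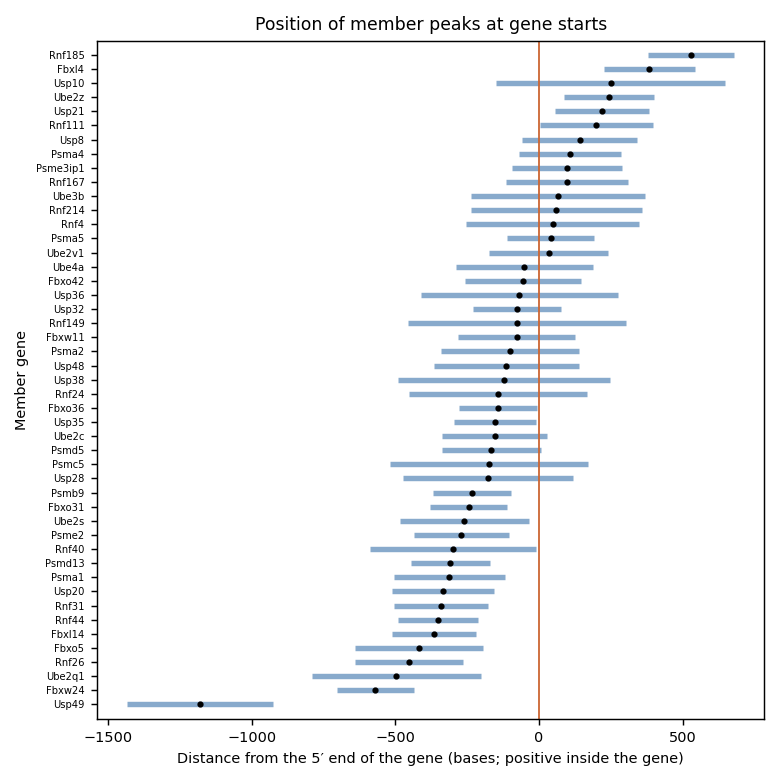
Distance of each peak centre from the annotated gene start (x axis, bases, negative upstream) for the 47 gene and peak pairs at a 5′ end, sorted by position; black points are centres, blue bars the extent of each peak and the orange line the start. The median position was -123.5 bases, and the peak covered the start in 24 of the 47 pairs.

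Many of these peaks cannot be given to 1 gene. Of the 59, 19 (32.2%) lay within 1000 bases of an end of more than 1 protein-coding gene, against 26.4% of all 1983 gene-end peaks. Psmc5 shared its peak with Ftsj3, Psma2 with Mrpl32, Rnf167 with Slc25a11, Usp5 with Cdca3 and Ube3b with Kctd10. Others were shared by Psma4 with Hykk and AY074887, Rnf5 with Agpat1, Rnf40 with Ccdc189, Psmd13 with Sirt3 and Psme3ip1 with Rspry1. The Psmb9 peak (chr17:34187427-34187700) also lay at Tap1, which encodes a subunit of the transporter that carries proteasome products into the endoplasmic reticulum. Just inside the limit of 1000 bases was the Usp49 peak, 925 bases from the gene end, with 19 and 20 reads for sgNTC and 11 and 7 for sgPrdm12. Just outside was a peak within Fbxo7, 1298 bases from its nearer end, with 10 and 12 against 4 and 6 reads.

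To ask whether accessibility at these genes differed between sgPrdm12 and sgNTC cells, all peaks were tested together and the member rows read off. No member peak passed. The count filter kept 26 of the 59 member peaks, which are not all members, and edgeR's quasi-likelihood F test called 0 of them after Benjamini-Hochberg adjustment at 0.05, where 0% of all 1125 tested peaks were called. Their adjusted p ran from 0.927 to 0.997. At an unadjusted p of 0.05 edgeR returned 1 member peak, that of Rnf111, where 5.07% of all tested peaks (57) reached it. DESeq2's Wald test gave 0 calls among the member peaks and none at an unadjusted p of 0.05, against 28 of 3186 peaks at that level.

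The fold changes of the tested members, log2 of sgPrdm12 over sgNTC, ran from -0.98 at Usp28 to 0.99 at Rnf111. Of the 26 values 17 were below 0 (65.4%), against 47.9% of all tested peaks. The median was -0.15 over the members and 0.02 over all tested peaks, with a median standard error of 0.44 for a member. The member median was -0.38 without sgPrdm12 replicate 1 and -0.04 without sgNTC replicate 2, where the filter passed 39 and 33 member peaks, so both the libraries and the peaks differ from the 26 above. In 7 of 26 members both sgPrdm12 libraries lay below both sgNTC libraries, where 18% of all tested peaks did so, and in 4 of 26 both lay above, where 16.4% of all tested peaks did. The 95% interval of the fold change lay within 2-fold either way at 4 of 26 members (15.4%, against 31.5% of all tested peaks) and within 4-fold at 23 (88.5%, against 94.0%). At most members a 2-fold difference in at least 1 direction therefore lay inside the interval and is not excluded. Accessibility levels per kilobase ran from 6.73 (Rnf149) to 21.5 (Rnf167) normalised reads, with a median of 13.3 against 13.8 for all tested peaks.

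**Figure D3:**
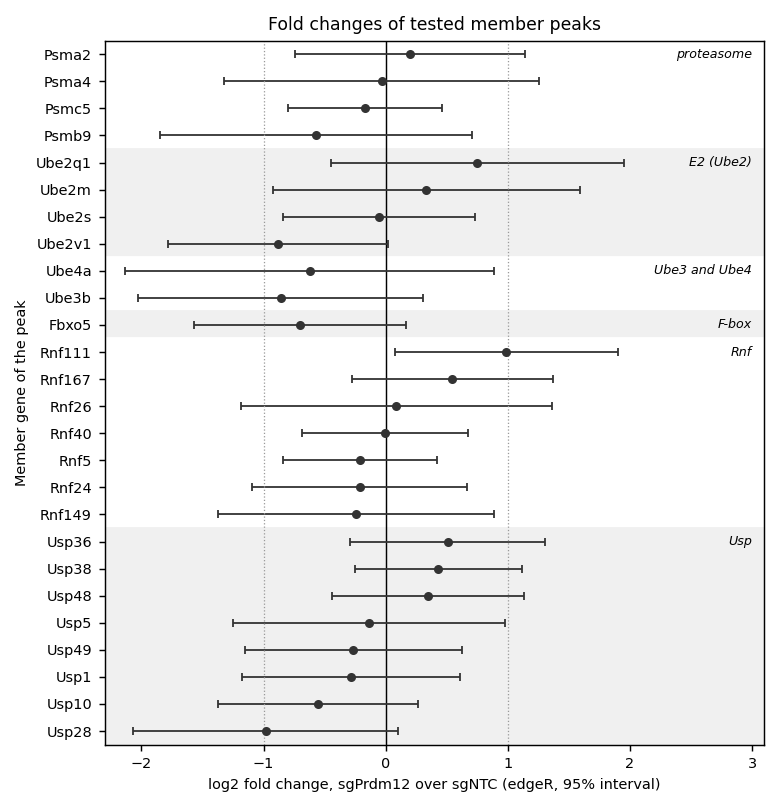
Log2 fold change of sgPrdm12 over sgNTC (x axis) for the 26 tested member peaks, grouped by subfamily; points are edgeR estimates and bars 95% intervals, with dotted lines at 2-fold. The interval of Rnf111 alone lies on 1 side of 0, and its adjusted p was 0.927.

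The proteasome peaks are given first. Normalised counts below are reads per 10000 effective reads in tested peaks, after scaling by TMM (the trimmed mean of M values). The strongest was that of Psmc5 (chr11:106255666-106256354), an ATPase of the base of the regulatory particle. Replicates 1 and 2 of sgNTC held 21 and 54 reads and those of sgPrdm12 held 24 and 12, which gave normalised counts of 10.8 and 13.6 against 12.2 and 9.60. The highest and the lowest library were those of batch 2, and the groups overlapped. The log2 fold change was -0.17 ± 0.31 (SE, n = 2 libraries per group), or -0.09 without sgPrdm12 replicate 2, and the edgeR adjusted p was 0.997.

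At Psma2 (chr13:14612900-14613381), an alpha subunit of the core, the normalised counts were 5.66 and 5.29 in the sgNTC libraries and 6.11 and 6.40 in the sgPrdm12 libraries. Both sgPrdm12 libraries lay above both sgNTC libraries by a small margin, and the log2 fold change was 0.20 ± 0.46 (SE; edgeR adjusted p = 0.997), or 0.12 without sgPrdm12 replicate 2. Psma4 (chr9:54950711-54951067), another alpha subunit, had 3.60 and 5.79 against 7.13 and 1.60. Its highest and lowest libraries were both of the sgPrdm12 group, and the log2 fold change of -0.03 ± 0.63 went to 0.45 without sgPrdm12 replicate 2 and to -1.57 without sgPrdm12 replicate 1. The immunoproteasome gene Psmb9 had normalised counts of 7.20 and 5.04 against 6.11 and 0.800, where the last value stands for 1 read. That library was far below the other 3. The log2 fold change was -0.57 ± 0.62 (edgeR adjusted p = 0.997) with it and 0.03 without it.

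The other proteasome peaks were below the count filter. Psmd3 and Psmd13, which encode subunits of the lid of the regulatory particle, had reads of 9 and 20 against 6 and 3, and of 10 and 8 against 2 and 1. After scaling, both sgPrdm12 libraries lay below both sgNTC libraries at these genes, as they did at Psma5, at the peak shared by Psme2 and Rnf31, and at Psme3ip1. Of all tested peaks 18% did so, and the share among all peaks below the filter was not computed. At Psma5 the batch 1 libraries differed by scaling alone, with normalised counts of 3.60 for sgNTC and 3.57 for sgPrdm12. Psma5 had 7 and 16 against 7 and 3 reads, the Psme2 and Rnf31 peak 10 and 19 against 9 and 4, and Psme3ip1 8 and 23 against 1 and 5. The groups overlapped at Psma1, with 7 and 18 against 10 and 3 reads, and at Psmd5, an assembly chaperone of the base, with 1 and 16 against 3 and 3.

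Summed over the 11 proteasome peaks, the normalised counts were 54.0 and 59.9 in the sgNTC libraries and 50.9 and 36.0 in the sgPrdm12 libraries. The difference lay mainly in batch 2: the log2 ratio of the sums was -0.08 in batch 1 and -0.74 in batch 2, and -0.39 for the group means. Without sgPrdm12 replicate 2, a setting chosen after the data were seen, it was -0.16. The lowest of the 4 libraries was sgPrdm12 replicate 2 at 8 of the 11 proteasome peaks (72.7%), against 32.1% of all gene-end peaks and 39.0% of all member peaks. The peak shared by Psme2 and Rnf31 counts among both the proteasome and the Rnf peaks. In the other subfamilies sgPrdm12 replicate 2 was lowest at 7 of 13 Rnf, 3 of 7 E2, 2 of 2 Ube3 and Ube4, 2 of 12 F-box and 2 of 15 Usp peaks. This is the library with the lowest depth and the lowest share of reads at gene ends, and the part of either in the proteasome values was not tested. The count was made after the values were seen and has no test.

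Among the E2 genes the values went both ways. Ube2v1 (chr2:167631780-167632194) encodes an E2-like protein without catalytic activity that pairs with Ube2n to build signalling chains. Its normalised counts were 8.23 and 7.05 in the sgNTC libraries and 4.07 and 4.00 in the sgPrdm12 libraries. Both sgPrdm12 libraries were below both sgNTC libraries and close to each other. Fitted, this was a log2 fold change of -0.88 ± 0.44, with an unadjusted p of 0.056 and an edgeR adjusted p of 0.927.

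Ube2q1 (chr3:89772818-89773405), another E2, had normalised counts of 4.12 and 3.78 against 5.60 and 8.00, and a log2 fold change of 0.75 ± 0.58, where the edgeR adjusted p was 0.969. Both sgPrdm12 libraries lay above both sgNTC libraries, and the value was 0.46 without sgPrdm12 replicate 2. Ube2m (chr7:13034454-13034842), the E2 that attaches NEDD8 to cullins, had 1.54 and 6.80 against 3.06 and 10.4. Its replicates differed more than its groups, batch 2 being high in both, and the log2 fold change of 0.33 ± 0.61 went to -0.65 without sgPrdm12 replicate 2 and to 1.95 without sgNTC replicate 2. Ube2s (chr7:4812377-4812825), which lengthens chains for the anaphase-promoting complex, had 7.72 and 6.30 against 6.11 and 7.20, with overlapping groups and a log2 fold change of -0.05 ± 0.38. Its partner at the same complex, Ube2c, was below the filter with 9 and 14 against 12 and 5 reads, as were Ube2d2a and Ube2z.

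Both tested peaks of the Ube3 and Ube4 genes were lower in each sgPrdm12 library than in each sgNTC library. Ube3b (chr5:114380279-114380885), a HECT ligase, had normalised counts of 6.17 and 6.30 in the sgNTC libraries and 3.57 and 3.20 in the sgPrdm12 libraries. Replicates lay close together in both groups. Its log2 fold change was -0.86 ± 0.57, -0.85 without sgPrdm12 replicate 2, and the edgeR adjusted p was 0.968. Ube4a (chr9:44965429-44965904), a U-box enzyme that extends ubiquitin chains, had 5.14 and 5.29 against 4.07 and 2.40. The sgNTC libraries were nearly equal and both sgPrdm12 libraries lower, and the log2 fold change was -0.62 ± 0.73 (edgeR adjusted p = 0.997), or -0.41 without sgPrdm12 replicate 2.

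Of the 12 F-box peaks only that of Fbxo5 passed the filter. Fbxo5 (chr10:5805660-5806105) encodes EMI1, an inhibitor of the anaphase-promoting complex, and its promoter is the one with 3 NFY matches above. Its reads, 22 and 31 for sgNTC and 11 and 7 for sgPrdm12, gave normalised counts of 11.3 and 7.81 against 5.60 and 5.60. Both sgPrdm12 libraries lay below both sgNTC libraries. This gave a log2 fold change of -0.70 ± 0.42 (unadjusted p = 0.108, edgeR adjusted p = 0.968) that became -0.47 without sgNTC replicate 1. The other 11 F-box peaks, Fbxw11 among them, were too low to be tested by this filter.

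The Rnf ligases held the peak with the smallest unadjusted p of the tested members. Rnf111 (chr9:70503445-70503837), also known as Arkadia, is a RING ligase that promotes TGF-beta signalling. Its reads were 7 and 18 for sgNTC and 17 and 10 for sgPrdm12, which gave normalised counts of 3.60 and 4.53 against 8.66 and 8.00. Both sgPrdm12 libraries were above both sgNTC libraries, by more than the spread within either group. Fitted, this was a log2 fold change of 0.99 ± 0.44, with an unadjusted p of 0.035 and an edgeR adjusted p of 0.927, so the difference did not hold after adjustment over 1125 peaks. The value was 0.98 without sgPrdm12 replicate 2 and ran from 0.89 to 1.16 when any 1 library was left out.

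The strongest Rnf peaks did not separate the groups. The peak of Rnf5 (chr17:34603750-34604497), a ligase of the endoplasmic reticulum membrane, held 21 and 54 reads against 23 and 12, or normalised counts of 10.8 and 13.6 against 11.7 and 9.60, with a log2 fold change of -0.21 ± 0.31. The peak of Rnf40 (chr7:127588111-127588688), which works with Rnf20 to place ubiquitin on a histone, had 8.23 and 10.6 against 9.17 and 10.4. Its log2 fold change was -0.00 ± 0.33. In both genes the groups overlapped, and the edgeR adjusted p was 0.997.

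Rnf167 (chr11:70647115-70647538), a ligase of endosomes and lysosomes, had 9.26 and 5.79 against 8.66 and 12.8, where the log2 ratio was -0.09 in batch 1 and 1.16 in batch 2. The groups overlapped, and the log2 fold change of 0.55 ± 0.40 (edgeR adjusted p = 0.969) was 0.24 without sgPrdm12 replicate 2. Rnf26 (chr9:44113317-44113690), another membrane RING protein, had 3.09 and 5.79 against 4.07 and 6.40 with a log2 fold change of 0.09 ± 0.62, or -0.26 without the same library. Rnf24 (chr2:131352724-131353343) and Rnf149 (chr1:39577137-39577895) had log2 fold changes of -0.21 ± 0.43 and -0.24 ± 0.55, with overlapping groups. Rnf24 went to -0.01 without sgPrdm12 replicate 2 and to -0.67 without sgPrdm12 replicate 1. At Rnf149 the lowest normalised count, 1.60 from 2 reads, was that of sgPrdm12 replicate 2, and the log2 fold change was 0.26 without that library.

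**Figure D4:**
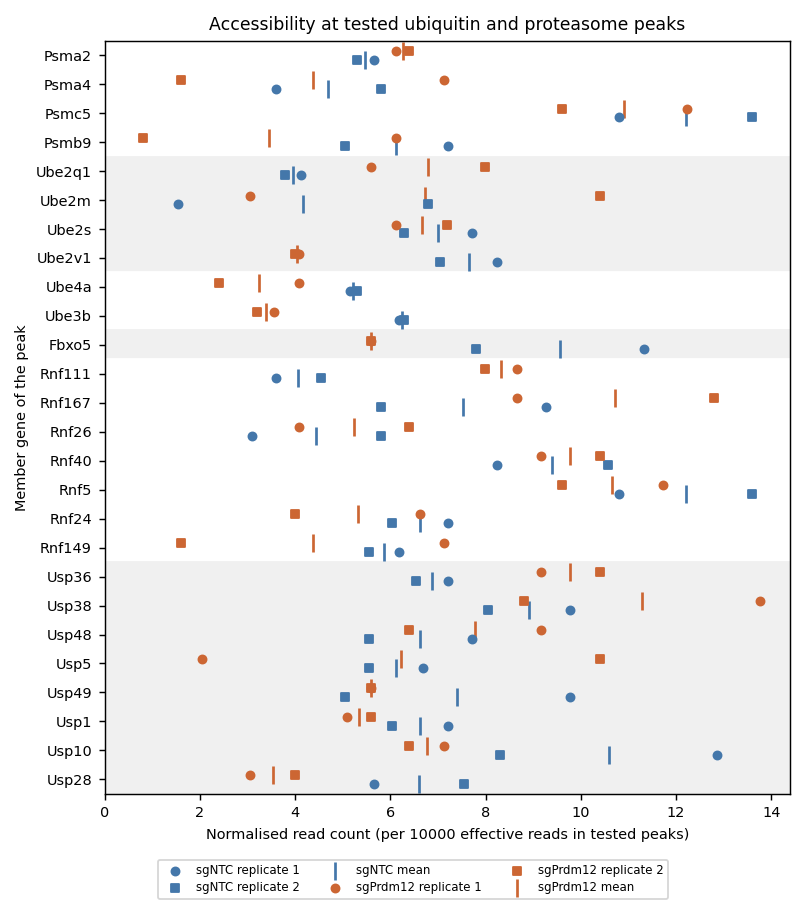
Normalised read count (x axis, reads per 10000 effective reads in tested peaks) in each of the 4 libraries at the 26 tested member peaks; blue marks sgNTC, orange sgPrdm12, circles replicate 1, squares replicate 2 and vertical ticks group means. At Rnf111 the sgPrdm12 libraries (8.66 and 8.00) lie above the sgNTC libraries (3.60 and 4.53), and at Ube3b and Ube2v1 they lie below.

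The ubiquitin-specific proteases gave 8 tested peaks, 3 above and 5 below 0. Usp28 (chr9:48984845-48985435), a protease that stabilises the transcription factor Myc, had the lowest fold change of the tested members. Its reads numbered 11 and 30 for sgNTC and 6 and 5 for sgPrdm12, which gave normalised counts of 5.66 and 7.56 against 3.06 and 4.00. Both sgPrdm12 libraries lay below both sgNTC libraries, in each batch by a similar ratio (log2 -0.84 and -0.80). The log2 fold change was -0.98 ± 0.53, with an unadjusted p of 0.074 and an edgeR adjusted p of 0.927, and it was -1.21 without sgPrdm12 replicate 2.

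Usp10 (chr8:119910212-119911007), a cytoplasmic protease known to act on tumour protein p53, had normalised counts of 12.9 and 8.31 against 7.13 and 6.40. Both sgPrdm12 libraries were lower, and the log2 fold change of -0.55 ± 0.40 (edgeR adjusted p = 0.968) was -0.28 without sgNTC replicate 1, its highest library. Usp1 (chr4:98923249-98923808), which removes ubiquitin from DNA repair proteins, had 7.20 and 6.04 against 5.09 and 5.60 with a log2 fold change of -0.29 ± 0.43. The groups did not overlap there, by a margin smaller than the spread between replicates. In the opposite direction was Usp36 (chr11:118289987-118290671), a nucleolar protease, with 7.20 and 6.55 against 9.17 and 10.4. Both sgPrdm12 libraries were above both sgNTC libraries, and the log2 fold change was 0.51 ± 0.39 (edgeR adjusted p = 0.969).

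The groups overlapped at the other Usp peaks that were tested. Usp38 (chr8:81014768-81015505) had 9.77 and 8.06 against 13.8 and 8.80, a log2 fold change of 0.43 ± 0.33 that was 0.03 without sgPrdm12 replicate 1, its highest library. Usp48 (chr4:137593754-137594259), which removes ubiquitin from a histone, had a log2 fold change of 0.35 ± 0.38. This value was 0.03 without sgPrdm12 replicate 1 and 0.01 without sgNTC replicate 2. Usp49 (chr17:47629258-47629765), which also removes ubiquitin from a histone, had -0.26 ± 0.43. Usp5 (chr6:124829186-124829476), which takes apart free ubiquitin chains, showed the widest absolute split between sgPrdm12 replicates, with normalised counts of 6.69 and 5.54 against 2.04 and 10.4. Its log2 ratio was -1.60 in batch 1 and 0.93 in batch 2, and its log2 fold change of -0.14 ± 0.54 went to -1.59 without sgPrdm12 replicate 2 and to 0.81 without sgPrdm12 replicate 1.

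Within batches the median log2 ratio over the 26 tested members was 0.01 in batch 1 and -0.01 in batch 2, against 0.06 and 0.04 over all tested peaks, and 13 member peaks were below 0 in each batch. The ratio was below 0 in both batches at 9 of the 26 and above 0 in both at 9, where 256 and 302 of all 1125 tested peaks did so. Usp28, Ube2v1, Ube3b, Ube4a, Fbxo5, Usp10, Usp1, Rnf24 and Psmb9 were below 0 in both batches. Rnf111, Ube2q1, Usp36, Usp38, Usp48, Psma2, Ube2m, Rnf26 and Rnf40 were above 0 in both. The sign of Rnf40 in batch 2 (0.012) rests on the prior count, since its normalised counts were 10.6 for sgNTC and 10.4 for sgPrdm12. The prior count was added to reads before scaling, so it raised batch 2 ratios wherever sgPrdm12 replicate 2 held fewer reads than sgNTC replicate 2. The counts of peaks above and below 0 in batch 2 depend on it. Psma4, Psmc5, Usp5, Usp49, Rnf149, Rnf5, Rnf167 and Ube2s had opposite signs in the batches.

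**Figure D5:**
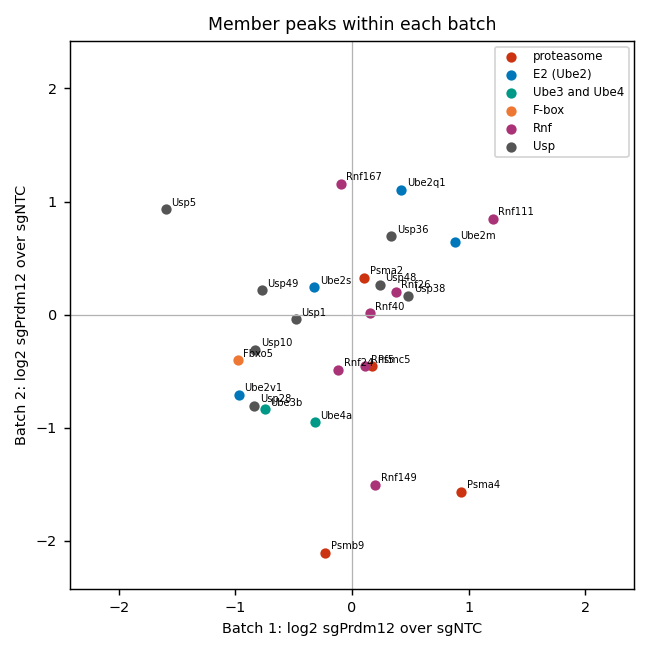
Log2 ratio of sgPrdm12 over sgNTC within batch 1 (x axis) and within batch 2 (y axis) for the 26 tested member peaks. A prior count of 0.5 was added to the reads before scaling. There are 9 peaks below 0 in both batches and 9 above 0 in both, where Rnf40 is above 0 in batch 2 by the prior count alone.

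All 59 member peaks together took a small and similar share of each library. For sgNTC they held 567 and 1178 reads, and for sgPrdm12 547 and 348. As a share of all reads in peaks this was 1.97% (95% Wilson interval 1.82 to 2.14) and 2.03% (1.92 to 2.15) against 1.88% (1.73 to 2.05) and 1.70% (1.54 to 1.89), intervals that cover counting error only. The intervals of sgNTC replicate 2 and sgPrdm12 replicate 2 did not overlap, whereas those within batch 1 did. Over the 2 libraries of a group the mean ± SD was 2.00% ± 0.04 for sgNTC and 1.79% ± 0.13 for sgPrdm12, a difference of -0.207 percentage points that was -0.0888 in batch 1 and -0.325 in batch 2. Without sgPrdm12 replicate 2 it was -0.117 points. As a share of reads in gene-end peaks, a denominator chosen after the data were seen, the means were 2.77% ± 0.06 and 2.59% ± 0.05, and the difference was -0.256 points in batch 1 and -0.104 in batch 2. These shares were not tested, since with 2 libraries a side a two-sided exact permutation test cannot give a p under 0.333.

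By subfamily, the log2 ratio of the mean normalised sums was 0.09 for E2 genes, 0.05 for Rnf genes, -0.08 for F-box genes and -0.02 for Usp genes. Behind the last 3 stood ratios of opposite sign in batches 1 and 2, which were 0.23 and -0.13 for Rnf, -0.35 and 0.20 for F-box and -0.17 and 0.13 for Usp genes. The sums of the Ube3 and Ube4 peaks were 11.3 and 11.6 in the sgNTC libraries and 7.64 and 5.60 in the sgPrdm12 libraries, a log2 ratio of -0.79 that rests on Ube3b and Ube4a alone. Over all 59 peaks the sums were 292 and 297 against 279 and 278, a log2 ratio of -0.08. The peak shared by Psme2 and Rnf31 is in both the proteasome and the Rnf sums and is counted once over all peaks.

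The 33 member peaks below the filter held 9 to 48 reads each over the 4 libraries. Fitted without the filter, 5 of the 59 member peaks reached an unadjusted p of 0.05, against 109 of 3186 peaks (3.42%), and the smallest adjusted p of a member was 0.892 (edgeR with Benjamini-Hochberg adjustment). Besides Rnf111 these were Fbxl14, Fbxo25, Rnf214 and Psme3ip1, named after their values were seen. Fbxl14 had 11 and 15 reads for sgNTC and 1 and 3 for sgPrdm12, and Rnf214 had 9 and 22 against 4 and 2. In both genes each sgPrdm12 library was below each sgNTC library after scaling. Fbxo25 had 1 and 10 against 3 and 13 reads, with overlapping groups.

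Other genes of the ubiquitin system, from a list of 162 names that did not use the symbol rule, also gave no call. Of the 158 names in the annotation 37 had a gene-end peak (23.4%), and 22 of their 38 peaks were tested. Of these 0 were called in either direction by edgeR (adjusted p from 0.927 to 0.997), none reached an unadjusted p of 0.05, and 11 were above and 11 below 0 with a median log2 fold change of -0.00. Sumo3, which encodes a ubiquitin-like modifier, had normalised counts of 6.17 and 3.02 against 7.13 and 8.80 and a log2 fold change of 0.90 ± 0.50, the highest of the tested peaks of the list. Otud6b, a protease of another family, had 5.66 and 8.82 against 6.62 and 1.60 and the lowest value among them, -0.72 ± 0.45. Both sgPrdm12 libraries lay below both sgNTC libraries at 2 of the 22 peaks and above them at 4, against 18% and 16.4% of all tested peaks. Rbx1, the RING subunit of the cullin ligases, had 7.72 and 10.1 against 11.2 and 12.8 and a log2 fold change of 0.36 ± 0.32. Like Sumo3, it was among the 4, as were Rchy1 and Ubr7 with log2 fold changes of 0.59 ± 0.36 and 0.35 ± 0.39. Nfe2l1 had 7.72 and 7.56 against 6.62 and 4.80 and a log2 fold change of -0.37 ± 0.39. Cblb, a ligase that restrains T cell activation, had 7.72 and 7.05 against 5.09 and 4.80 and a log2 fold change of -0.55 ± 0.40, and these were the 2 peaks with both sgPrdm12 libraries lower.

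In the authors' deposited table the log2 difference, sgPrdm12 minus sgNTC, had a median of -0.34 over the 59 member peaks, against -0.14 over all 3187 peaks. It was below 0 at 40 of 59 members (67.8%) and at 58.0% of all peaks. Among the peaks tested here the shares were 69.2% for members and 67.0% for all, with medians of -0.41 and -0.17. With the standard errors of the authors' deposited table a normal 95% interval excluded 0 at 0 member peaks and at 1 peak in all.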

How the data were processed

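ATAC-seq was measured in 4 libraries, 2 per group. The deposited table gives 1 peak set with read counts per peak for each library, the authors' log2 group means, the authors' log2 difference and its standard error, a score on the same log2 scale. Per the submitters' processing notes, the build was GRCm38 and the tools were Bowtie2, cutadapt, Picard, MACS2, ChIPseeker, HOMER and DiffBind. The sources used here give no versions, no order of steps, no origin for each column, and not whether peak calling pooled the libraries.

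Genes and peaks were joined on RefSeq gene spans of GRCm38.p6 without exons, so no peak was placed in an exon, intron or UTR. Strand came from the promoter table of RefSeq, which held 249 of the 313 members. Motifs were searched in its windows of 250 bases before to 50 after a start.

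Counts were tested as deposited with edgeR 4.0.16 in R 4.3.3 (quasi-likelihood F test, robust fit, TMM scaling, group only, Benjamini-Hochberg adjustment over all tested peaks). The filterByExpr function with a minimum count of 10 kept 1125 peaks. Standard errors are the coefficient over the square root of F. Ratios within a batch used a prior count of 0.5, added to the reads before scaling, which raises the library with fewer reads more. The test was tested on simulated data. DESeq2 1.42.0, RLE size factors, library totals, other filters, other windows, the replicate block and leaving out each library were the alternatives.

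Members with a tested peak, all proteasome genes with a peak and the strongest peak of each subfamily were named by rule. The other ubiquitin genes and further members below the filter were picked for mention with their values known. The members, lists, tests and rule were chosen with earlier results of these data known. The labels put same-numbered replicates in a shared batch, and the correlation of their deviations from the group means was 0.058.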

Additional observations from a re-analysis of the deposited data

How the results depend on the processing

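No alternative called a member peak, and the smallest adjusted p of any tested member under any of them was 0.802 (edgeR or DESeq2 with Benjamini-Hochberg adjustment). The median log2 fold change of the members stayed below 0. It was -0.18 with library totals, -0.22 with no filter, -0.19 with only peaks that cover an end of the gene span and -0.14 with a window of 5000 bases. It ran from -0.38 to -0.042 when 1 library was left out, the extremes being without sgPrdm12 replicate 1 and without sgNTC replicate 2. With the replicate block it was -0.14 and 0 member peaks were called, and the block changed no call. The difference in the share of reads ran from -0.297 to -0.117 points over left-out libraries. Of 156 values for single peaks under settings that kept all libraries, 153 kept their direction. The exceptions were all at Rnf40, with 0.020 at a minimum count of 5, 0.051 in DESeq2 and 0.059 with the replicate block. Leaving out 1 library turned the sign in 15 of 104 values, at 9 of 26 peaks. Leaving out a library also changed which peaks passed the filter. Over left-out libraries the log2 fold change ran from -1.57 to 0.45 at Psma4, from -2.79 to 0.029 at Psmb9, from -1.81 to 0.26 at Rnf149, from -0.26 to 0.67 at Rnf26, from -0.13 to 0.19 at Rnf40, from -0.65 to 1.95 at Ube2m, from -0.27 to 0.094 at Ube2s, from -0.84 to 0.16 at Usp49 and from -1.59 to 0.81 at Usp5. The cause was not tested. A member peak held 9 to 111 reads over the 4 libraries, and what part of this spread comes from depth was not tested.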
